A study of Mus musculus with 6 samples.

Results

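The transcripts of 10 genes of MHC class I molecules, their peptide supply and their transcription were examined in osteoclasts that overexpress HES1 and in control osteoclasts. The genes were chosen by name: B2m, H2-K1, H2-D1, Tap1, Tap2, Tapbp, Psmb8, Psmb9, Psmb10 and Nlrc5. They are 10 of the 55573 Ensembl mouse genes listed for each library. All 10 had enough counts to be tested, among 16954 genes tested in all.

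RNA-Seq was performed on bone marrow-derived macrophages grown to day 4 in the presence of 30 ng/ml M-CSF plus 10 ng/ml RANKL to form osteoclasts. There were 3 control and 3 Rosa-Hes1 libraries, all labelled male, and the study describes the donors as 10-week-old mice and the libraries as biological replicates. The Rosa-Hes1 cells came from Ctsk Cre/WT;Rosa-Hes1 mice, in which Cre made from the Ctsk (cathepsin K) locus removes a STOP cassette, so that Hes1 coding sequence is transcribed from the Rosa26 locus together with GFP. The labels call the controls wild type, whereas the study describes them as littermates that carry the Rosa[STOP]Hes1 allele without Cre. Recombination was therefore limited to cells that had switched on Ctsk, and each library represents a whole culture in which osteoclasts and their precursors are mixed. The Rosa[STOP]Hes1 line was obtained in an ICR background and the Ctsk Cre line was kept in C57BL/6, so that the mice could differ at the H2 locus. The labels do not give the H2 haplotype of any mouse, and its part in the results for genes of that locus was not tested.

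MHC class I molecules display peptides from the inside of the cell to CD8 T cells. The proteasome cuts cytosolic proteins, the TAP transporter carries the peptides into the endoplasmic reticulum, and tapasin holds the transporter next to empty class I molecules until a peptide fits. In cells exposed to interferon-γ, the β subunits encoded by Psmb8, Psmb9 and Psmb10 replace their constitutive counterparts in the proteasome, and NLRC5 increases the transcription of most genes of the pathway. HES1, a target of Notch signaling, is best known as a transcriptional repressor that binds N box and E box DNA sequences.

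Promoter sequences are shown for the genes whose starts carry the letters by which class I transcription is best known. The sequences come from RefSeq on GRCm38.p6, in windows from 250 bases before to 50 bases after each start, and 8 of the 10 genes had a window. Tap2 and Nlrc5 had none. The capitals mark GGGATTCCC, the core of enhancer A, which binds NF-κB. They also mark GAAANNGAA, the core of an interferon response element, TGACG, the core of the X2 box, and CCAAT, the Y box. Each was searched for on both strands, so CCAAT can appear as ATTGG, and the marked letters do not overlap one another. H2-K1 is at chr17:34000348-34000469 on the minus strand, H2-D1 at chr17:35262912-35263033 on the plus strand and B2m at chr2:122147536-122147650 on the plus strand. All 3 stretches lie upstream of the RefSeq start.
H2-K1: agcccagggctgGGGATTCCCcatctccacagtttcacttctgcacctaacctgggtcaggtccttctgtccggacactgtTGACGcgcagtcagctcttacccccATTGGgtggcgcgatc
H2-D1: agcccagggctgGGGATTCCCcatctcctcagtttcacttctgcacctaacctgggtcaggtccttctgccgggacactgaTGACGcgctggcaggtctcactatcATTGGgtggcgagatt
B2m: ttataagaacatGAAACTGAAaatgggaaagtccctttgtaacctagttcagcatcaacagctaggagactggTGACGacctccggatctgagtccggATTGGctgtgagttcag

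The H2-K1 and H2-D1 stretches were identical at 109 of 122 bases (89.3%), with every marked run in the same place. GGGATTCCC was present in 0.353% of all 32851 mouse windows, and among the 8 genes with a window it was found in H2-K1 and H2-D1. The other letters are common. GAAANNGAA was in 8.56% of all windows and in B2m among the 8 genes, TGACG was in 20.8% and in 5 of the 8, and CCAAT was in 37.4% and in 6 of the 8. The N box letters CACNAG were in 42.5% of all windows and in those of B2m, H2-K1 and Tapbp, and the E box letters CACGTG were in 7.15% and in that of Psmb10. A match of letters is a description and does not show that a factor was bound. The lack of a match does not show that an element is absent, because a fixed pattern misses elements that are spelled or spaced differently. The printed stretches of H2-K1 and H2-D1 both hold the letters tttcacttc, downstream of GGGATTCCC. Read on the other strand, these letters are GAAANNGAA with GAAA and GAA in exchanged order, so the search missed them. B2m is therefore the only match to GAAANNGAA as spelled, and not the only gene with letters of this kind. How often the exchanged order occurs in other windows, and whether it acts as an interferon response element in these cells, was not tested.

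Tap1 and Psmb9 are transcribed away from each other, and their RefSeq starts are separated by 225 bases. That stretch is shown because it lies between the RefSeq starts of both genes. It is at chr17:34187331-34187555 and is written on the strand of Tap1, with CCAAT and TGACG in capitals. In GENCODE, Psmb9 starts at chr17:34187764, beyond this stretch, and its exons share 212 bases with those of Tap1.
Tap1 and Psmb9: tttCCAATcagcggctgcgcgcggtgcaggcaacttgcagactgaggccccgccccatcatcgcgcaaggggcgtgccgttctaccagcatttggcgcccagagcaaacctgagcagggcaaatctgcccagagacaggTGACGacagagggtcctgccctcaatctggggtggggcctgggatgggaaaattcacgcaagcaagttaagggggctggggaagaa

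The libraries held 13038362 to 15956331 counts in genes. Hes1, the induced gene, was 11.8-fold higher in Rosa-Hes1 osteoclasts (log2 fold change 3.57 ± 0.30 (SE), edgeR adjusted p = 0.00477), and its counts ranged from 4 to 9 in control and from 74 to 95 in Rosa-Hes1 libraries. Of 10 osteoclast marker genes, Ctsk was not increased. Its locus carries Cre in the Rosa-Hes1 mice and not in the controls, and the part of this in its level was not tested. The other 9 were increased. Those with the smallest adjusted p were Itgb3 (0.78), Atp6v0d2 (0.72), Acp5 (0.74) and Mmp9 (0.73, all log2 fold changes with edgeR adjusted p of 0.00566 to 0.00997), and the largest fold change was that of Oscar (1.13, edgeR adjusted p = 0.0150). The summed level of the 10 osteoclast markers was 10760 to 13810 CPM (a count divided by its library's TMM-normalized size) in control and 17050 to 20020 CPM in Rosa-Hes1 libraries, whereas 10 macrophage markers summed to 4646 to 5684 and 4448 to 5546 CPM. Of the macrophage markers Cx3cr1 was decreased (log2 fold change −0.50, edgeR adjusted p = 0.0404), and of 8 dendritic cell markers Itgax was increased (0.82, edgeR adjusted p = 0.0178). Neither passed without control replicate 1 or 3 or without Rosa-Hes1 replicate 1 or 3, Cx3cr1 did not pass without Rosa-Hes1 replicate 2, and Acp5 and Mmp9 did not pass without Rosa-Hes1 replicate 1. Oscar did not pass without control replicate 3, without Rosa-Hes1 replicate 1 or with no filter on low counts. Other cell types left transcripts in the cultures. Markers of osteoblasts and stroma, chiefly Col1a1, summed to 185 to 488.5 CPM in control and 124.5 to 384 CPM in Rosa-Hes1 libraries, and those of neutrophils to 257 to 511 and 239.9 to 341 CPM, and 0 of either list passed with edgeR. Defining markers of T cells (Cd3e, Cd3g), the dendritic cell marker Cd209a and the mast cell marker Tpsb2 were at 0 in every library. The part of these shifts in the results below was not tested. In whole cultures, fewer cells of a type and less RNA per cell cannot be told apart.

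Tap2 was increased in Rosa-Hes1 osteoclasts and was the only member of the pathway that passed the test. None of the 10 was significantly decreased. The share of all tested genes that passed was 5.85% for higher and 2.41% for lower expression in Rosa-Hes1 cells. The fold changes of the other 9 members were below 0 on the log2 scale, from −0.06 to −0.52, and none of them passed. The median log2 fold change of the 10 members was −0.12, and that of all tested genes was −0.01. An unadjusted edgeR p under 0.05 was found for Tap2 in the upward direction and for H2-K1, Psmb8 and Nlrc5 in the downward direction. DESeq2 called 1 member lower (Nlrc5), and limma-voom called 0. Over all genes and both directions, DESeq2 called 2178 and limma-voom 2335, against 1399 with edgeR. Their counts in the lists below are to be read beside these totals.

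**Figure D1:**
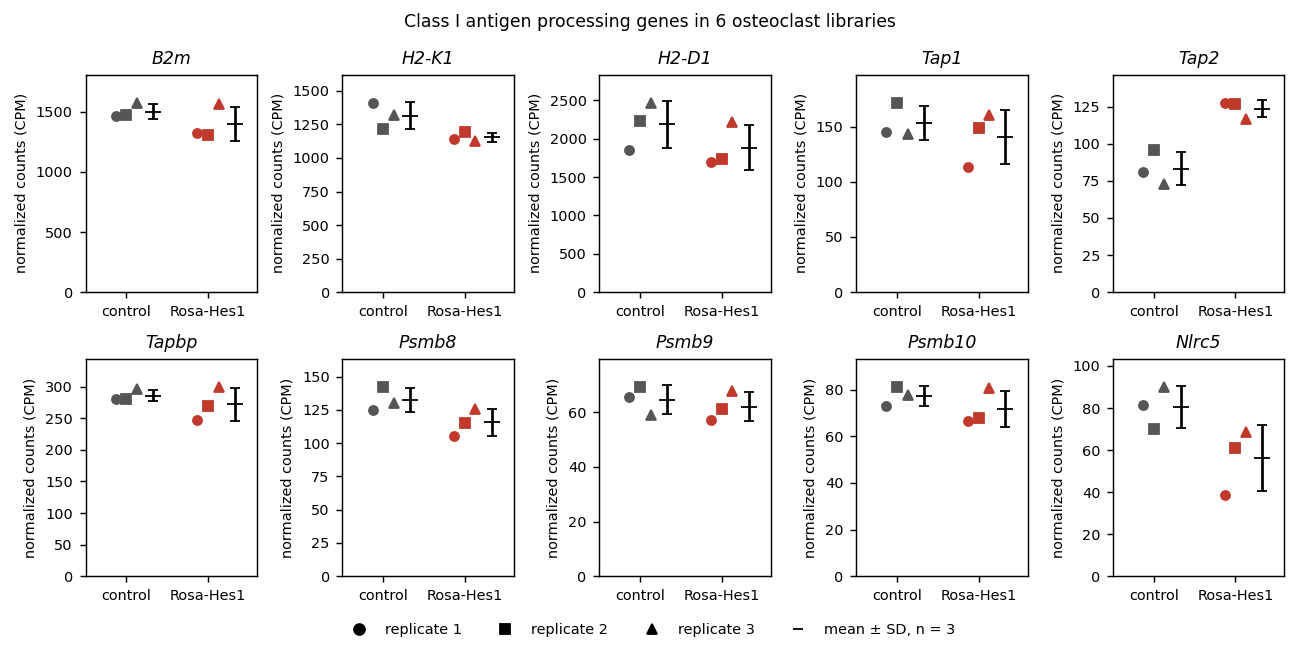
Normalized counts (CPM, y axis, starting at 0) of the 10 genes in 3 control (grey) and 3 Rosa-Hes1 (red) libraries, with symbols for replicates and black bars for mean ± SD (n = 3). Tap2 lies at 73.1 to 95.7 CPM in control and 117 to 128 CPM in Rosa-Hes1 libraries, and the lowest Nlrc5 value, 38.7 CPM, is that of Rosa-Hes1 replicate 1.

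B2m encodes β2-microglobulin, the light chain shared by all classical class I molecules. Its level was 1464, 1469.8 and 1574 CPM in control replicates 1 to 3 and 1326, 1311 and 1565 CPM in Rosa-Hes1 replicates 1 to 3. Rosa-Hes1 replicate 3 lay among the controls and the other two lay below them, so the groups overlapped. The log2 fold change was −0.10 (95% CI −0.29 to 0.09, edgeR adjusted p = 0.512), an interval that spans a 0.816- to 1.07-fold change. Per kilobase of transcript, B2m had the highest level of the pathway, at 1747 ± 72.2 RPKM (the CPM divided by transcript length in kilobases) in control and 1629 ± 166 RPKM in Rosa-Hes1 libraries (SD, n = 3).

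H2-K1 encodes a classical heavy chain, the subunit that holds the peptide. Its level was 1409.8, 1213 and 1320.5 CPM in control libraries, compared with 1139.7, 1194 and 1129 CPM in Rosa-Hes1 libraries. Every Rosa-Hes1 library was below every control, an order found for 14.5% of all tested genes. The difference was small, at a log2 fold change of −0.19 (95% CI −0.36 to −0.02), and did not pass (edgeR adjusted p = 0.153).

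H2-D1, the other classical heavy chain gene of the C57BL/6 reference genome, was at 1858, 2232 and 2467 CPM in control and at 1702, 1732 and 2221 CPM in Rosa-Hes1 libraries. Control replicate 1 and Rosa-Hes1 replicates 1 and 2 were low, and the other 3 libraries were high, so the groups overlapped. The log2 fold change was −0.21 (95% CI −0.52 to 0.09, edgeR adjusted p = 0.367). With 1 surrogate variable in the model it was −0.27 and passed (edgeR adjusted p = 0.0322).

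A second gene of the locus varied across the same libraries. H2-Ea-ps, the class II α gene that C57BL/6 mice do not transcribe, had 15, 2 and 0 counts in control replicates 1 to 3 and 23, 17 and 2 in Rosa-Hes1 replicates 1 to 3. The 3 libraries with 15 or more of these counts were those in which H2-D1 was low. The same 3 libraries had the highest summed level of osteoblast and stromal markers, at 488.5, 279 and 384 CPM, against 185, 186 and 124.5 CPM in control replicates 2 and 3 and Rosa-Hes1 replicate 3. The H2-Ea-ps counts are few, and the part of either measure in the level of H2-D1 was not tested. Of 75-base words in the transcripts, 3.10% of those of H2-K1 and 5.56% of those of H2-D1 also occurred in another gene, mostly H2-Q10 and H2-Q1, so that a part of their reads could have been left uncounted.

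Tap1 and Tap2 encode the subunits of the peptide transporter, which works as a heterodimer. Tap1 was at 145, 171 and 143 CPM in control and at 113, 149 and 160.0 CPM in Rosa-Hes1 libraries. Rosa-Hes1 replicate 1 was lowest and the other 2 Rosa-Hes1 libraries lay within the range of the controls. The log2 fold change of Tap1 was −0.12 (95% CI −0.42 to 0.18, edgeR adjusted p = 0.620), and without Rosa-Hes1 replicate 1 it turned to 0.01.

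Tap2 was at 81.3, 95.7 and 73.1 CPM in control and at 128, 127 and 117 CPM in Rosa-Hes1 libraries. Every Rosa-Hes1 library was above every control, an order found for 16.6% of all tested genes. Tap2 was increased 1.48-fold (95% CI 1.27 to 1.74), with a log2 fold change of 0.57 ± 0.10 (SE, edgeR adjusted p = 0.0147). The increase had edgeR adjusted p = 0.0636 without control replicate 1 and adjusted p = 0.0695 without Rosa-Hes1 replicate 1, at log2 fold changes of 0.55 in both cases. Across all 14 alternatives the log2 fold change of Tap2 stayed between 0.48 and 0.68.

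Antisense genes overlap Tap2, and the strand setting used to count reads is not given in the sources used here. Gm15821, an antisense RNA that covers 14.1% of the exon bases of Tap2, had 4 to 6 counts in control and 5 to 12 in Rosa-Hes1 libraries. Gm20496 covers 4.36% and had 0 counts in every library. Tap2 itself had 988 to 1545 counts in control and 1607 to 1941 in Rosa-Hes1 libraries. Reads of Tap2 and of an antisense partner cannot be told apart where they overlap unless strand was used. HTSeq assigned ambiguous reads to no gene, so that such reads could be missing from the counts of Tap2. The same limit holds for Tap1 and Psmb9, whose GENCODE exons share 212 bases on opposite strands. These are 3.87% of the exon bases of Tap1 and 5.79% of those of Psmb9. It also holds for Psmb8, as Gm20496 covers 14.7% of its exon bases.

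The subunits of the transporter were compared within each library after the values of Tap2 had been seen. Per kilobase of transcript, there were 0.480, 0.479 and 0.438 Tap2 reads for each Tap1 read in the controls and 0.964, 0.731 and 0.626 in the Rosa-Hes1 libraries. The ratio was thus higher in every Rosa-Hes1 library than in any control. The difference of the mean log2 ratio was 0.71 (exact two-sided permutation test, p = 0.1, the smallest value that 3 libraries against 3 allow). It ranged from 0.54 to 0.85 when each library was left out in turn, and was lowest without Rosa-Hes1 replicate 1.

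Tapbp encodes tapasin. It was at 281, 281 and 295 CPM in control and at 247, 269.9 and 299 CPM in Rosa-Hes1 libraries, and the groups overlapped. Its log2 fold change was −0.07 (95% CI −0.25 to 0.11, edgeR adjusted p = 0.645). Zbtb22 shares 4.11% of the exon bases of Tapbp on the same strand, and its own log2 fold change was −0.00 (edgeR adjusted p = 0.992). Gm19412, which is antisense to 24.9% of them, had 0 counts in every library.

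Psmb8 encodes β5i, the immunoproteasome subunit with chymotrypsin-like activity. It was at 125, 142 and 130.3 CPM in control and at 106, 115.5 and 125 CPM in Rosa-Hes1 libraries. Rosa-Hes1 replicates 1 and 2 were below all controls, and replicate 3 was level with the lowest of them. The log2 fold change was −0.20 (95% CI −0.39 to −0.01, edgeR adjusted p = 0.180).

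Psmb9 (β1i) and Psmb10 (β2i) encode the other catalytic subunits of the immunoproteasome. Psmb9 was at 65.5, 69.2 and 58.9 CPM in control and at 57.2, 60.9 and 67.6 CPM in Rosa-Hes1 libraries. Psmb10 was at 72.8, 81.1 and 77.8 CPM in control and at 66.6, 68.0 and 80.6 CPM in Rosa-Hes1 libraries. For both genes the groups overlapped and replicate 1 was the lowest Rosa-Hes1 library. Their log2 fold changes were −0.06 (95% CI −0.27 to 0.14, edgeR adjusted p = 0.739) for Psmb9 and −0.11 (95% CI −0.31 to 0.10, edgeR adjusted p = 0.506) for Psmb10.

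The constitutive counterparts Psmb5 (β5), Psmb6 (β1) and Psmb7 (β2) had log2 fold changes of 0.02, 0.11 and −0.03, and 0 of 3 passed (edgeR adjusted p = 0.354 to 0.906). Each immunoproteasome subunit was then set against the constitutive subunit that it replaces. Per kilobase, the ratio of Psmb8 to Psmb5 was 0.801, 0.862 and 0.744 in control and 0.662, 0.648 and 0.761 in Rosa-Hes1 libraries. Psmb8 was thus below Psmb5 per kilobase in every library of both genotypes. The ratio of Psmb9 to Psmb6 was 0.211, 0.199 and 0.179 in control and 0.156, 0.172 and 0.196 in Rosa-Hes1 libraries. The ratio of Psmb10 to Psmb7 was 0.569, 0.575 and 0.614 in control and 0.547, 0.499 and 0.619 in Rosa-Hes1 libraries. These levels depend on the transcript length used. Over the union of all exons, the ratios of the mean RPKM in Rosa-Hes1 libraries were 0.332 for Psmb8 to Psmb5, 0.151 for Psmb9 to Psmb6 and 1.26 for Psmb10 to Psmb7, which was then the highest, as it was in control libraries.

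The mean log2 ratio differed between Rosa-Hes1 and control by −0.22 for Psmb8 to Psmb5 (exact two-sided permutation test, p = 0.2, and 0.3 after Benjamini-Hochberg adjustment over 3 ratios). For Psmb9 to Psmb6 the difference was −0.17 (exact two-sided permutation test, p = 0.2, adjusted 0.3), and for Psmb10 to Psmb7 it was −0.08 (exact two-sided permutation test, p = 0.5, adjusted 0.5). With 3 libraries in each group this test cannot go below 0.1. None of the 3 differences passed, and for each ratio the groups overlapped.

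**Figure D2:**
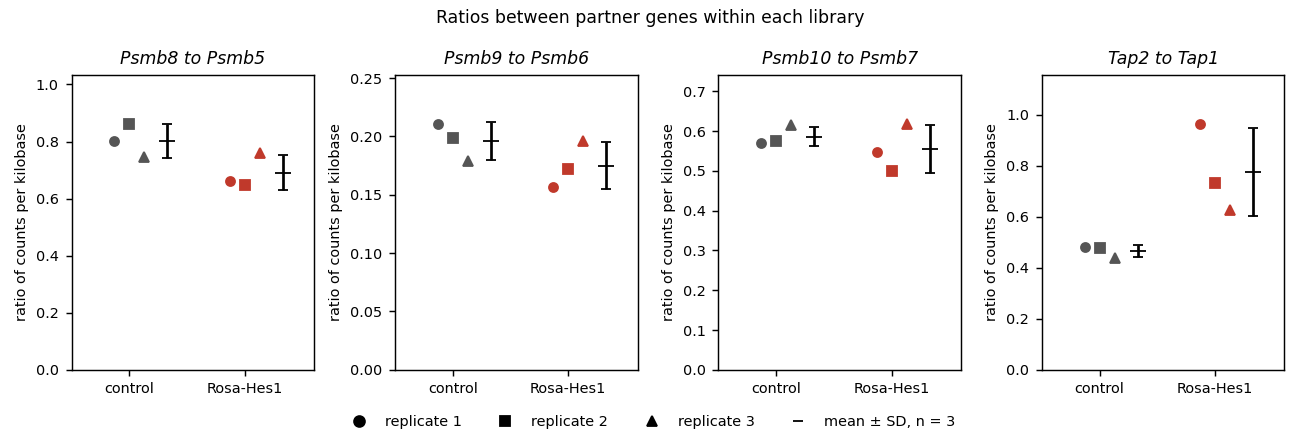
Ratio of counts per kilobase (y axis, starting at 0) of each immunoproteasome subunit to its constitutive counterpart, and of Tap2 to Tap1, in 3 control (grey) and 3 Rosa-Hes1 (red) libraries. Black bars are mean ± SD (n = 3). The ratios of the proteasome subunits overlap between groups, and those of Tap2 to Tap1 are 0.438 to 0.480 in control and 0.626 to 0.964 in Rosa-Hes1 libraries.

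Nlrc5 encodes the class I transactivator, which acts through a complex assembled on the X and Y boxes of class I promoters. It was at 81.4, 70.1 and 90.0 CPM in control and at 38.7, 60.9 and 68.8 CPM in Rosa-Hes1 libraries. Every Rosa-Hes1 library was below every control, although Rosa-Hes1 replicate 3 and control replicate 2 were nearly equal. The log2 fold change was −0.52 ± 0.20 (SE), a 0.697-fold change (95% CI 0.499 to 0.973), and did not pass (edgeR adjusted p = 0.165). DESeq2 gave an adjusted p = 0.0376 on the same counts. Without Rosa-Hes1 replicate 1 the log2 fold change was −0.31, and without Rosa-Hes1 replicate 3 it was −0.70.

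Of the other factors known to act on class I promoters, Irf1, itself induced by interferon, had a log2 fold change of 0.09 and did not pass (edgeR adjusted p = 0.722). Irf8 was at −0.38 (edgeR adjusted p = 0.0925) and Rfx5, a DNA-binding partner of NLRC5, at −0.39 (edgeR adjusted p = 0.154). The study reports Irf8 as decreased in these osteoclasts, from DESeq2 with covariates that it does not name. The legend of its figure gives p under 0.05, and its methods give a false discovery rate under 0.05. The unadjusted edgeR p of Irf8 was 0.0133. Ciita, the class II transactivator, was at 0.248 to 1.03 CPM in control and 0.326 to 1.32 CPM in Rosa-Hes1 libraries. Over a list of 35 regulators 1 was increased and 3 were decreased, with a median log2 fold change of −0.12. The increased gene was Atf1, a factor that binds TGACG elements (log2 fold change 0.38 ± 0.10 (SE), edgeR adjusted p = 0.0492), which passed under 7 of 14 alternatives and not with DESeq2 size factors in edgeR. The decreased genes were Ifngr1, a chain of the interferon-γ receptor (−0.45 ± 0.07, edgeR adjusted p = 0.0103), Ezh2, a histone H3 lysine methyltransferase of the Polycomb complex (−0.51 ± 0.11, edgeR adjusted p = 0.0290), and Nfya, a subunit of the factor that binds CCAAT (−0.47 ± 0.11, edgeR adjusted p = 0.0402). Ifngr1 passed under 13 of 14 alternatives, Ezh2 under 9 and Nfya under 8. Whichever library was left out, Nfya did not pass. DESeq2 called 1 of the 35 higher and 6 lower, limma-voom 2 and 5, and edgeR with 1 surrogate variable 2 and 7. Over all genes and both directions these methods called 2178, 2335 and 2360, against 1399 in the main fit. Without Rosa-Hes1 replicate 1, 0 of the 35 regulators passed in either direction, and 1 passed, in the downward direction, when any single control was left out. Without Rosa-Hes1 replicate 2, 2 were increased and 5 decreased, and without Rosa-Hes1 replicate 3, 0 and 2.

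Levels per kilobase set the genes in order. In control libraries, B2m was followed by H2-D1 (1039.8 ± 146 RPKM), H2-K1 (812 ± 60.9 RPKM), Tapbp (98.6 ± 2.90 RPKM), Psmb8 (81.4 ± 5.45 RPKM), Psmb10 (58.9 ± 3.17 RPKM), Tap1 (51.9 ± 5.33 RPKM), Psmb9 (47.7 ± 3.86 RPKM), Tap2 (24.2 ± 3.32 RPKM) and Nlrc5 (10.6 ± 1.31 RPKM; all SD, n = 3). The chains of the class I molecule were thus far above the genes that make and carry peptides. Psmb10 and Tap1, and Tap1 and Psmb9, overlapped between libraries, and the other neighbours did not. The order was the same in Rosa-Hes1 libraries, in which Tap2 was at 35.9 ± 1.72 RPKM and Nlrc5 at 7.41 ± 2.06 RPKM. Lengths were those of the principal transcript. Over the union of all exons, the RPKM of Psmb10 was above that of Psmb8 and the RPKM of Tap2 above that of Psmb9, and in Rosa-Hes1 libraries Tap2 was above Tap1.

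Besides H2-K1 and H2-D1, the genome encodes other class I heavy chains. Of 27 listed genes 16 were tested, and 6 were decreased and 0 increased in Rosa-Hes1 osteoclasts with edgeR, with a median log2 fold change of −0.24. Limma-voom called 1 of them higher, and DESeq2 called 0. The unadjusted edgeR p was under 0.05 for 7 genes in the downward direction and for 1, Cd1d1, in the upward direction. All 6 decreased genes were lower in every Rosa-Hes1 library than in any control, an order that passing the test on the same libraries makes likely. Of all tested genes 14.5% had this order and 2.41% were called lower. Hfe, which controls iron uptake and presents no peptide, was at 40.0, 36.5 and 40.5 CPM in control and at 22.7, 26.0 and 23.7 CPM in Rosa-Hes1 libraries (log2 fold change −0.69 ± 0.09 (SE), edgeR adjusted p = 0.00591). The nonclassical gene H2-Q7 was at 77.3, 79.2 and 82.6 CPM in control and at 40.6, 52.5 and 58.3 CPM in Rosa-Hes1 libraries (−0.66 ± 0.12, edgeR adjusted p = 0.0171).

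H2-Q5 (−0.95 ± 0.18, edgeR adjusted p = 0.0192), H2-Q4 (−0.59 ± 0.12, edgeR adjusted p = 0.0245) and H2-Q6 (−0.68 ± 0.14, edgeR adjusted p = 0.0252) were decreased on the log2 scale, as was H2-M3, which presents bacterial formylated peptides (−0.53 ± 0.13, edgeR adjusted p = 0.0395). The 4 H2-Q genes share sequence. Of the 75-base words of their transcripts, 17.0% to 21.2% also occurred in another gene, so that counts could be divided among them and their values are not independent. H2-T23 (Qa-1) was at 93.5 to 105 CPM in control and 91.6 to 122 CPM in Rosa-Hes1 libraries and did not pass (edgeR adjusted p = 0.675). The number decreased was 1 of the list when any single control was left out, 3 without Rosa-Hes1 replicate 1 and 5 to 8 without one of the other Rosa-Hes1 libraries. Hfe passed under all 14 alternatives.

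**Figure D3:**
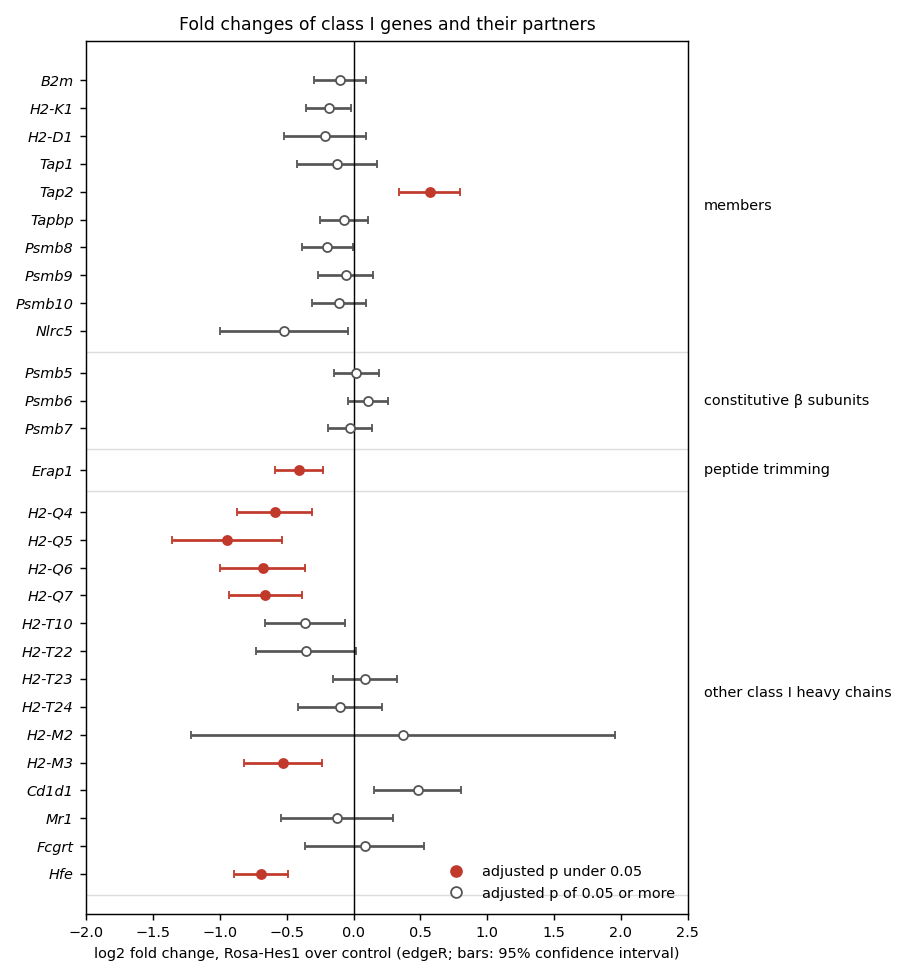
Log2 fold change, Rosa-Hes1 over control (x axis), with 95% confidence intervals from edgeR, for the 10 genes, the 3 constitutive β subunits, Erap1 and the 14 other class I heavy chain genes that averaged 1 CPM or more. Filled red points passed an adjusted p of 0.05. Tap2 at 0.57 is the only filled point above 0, and the filled points below 0 are Erap1 and 6 heavy chain genes.

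Erap1, the aminopeptidase that trims peptides in the endoplasmic reticulum, was decreased. It was at 138, 124 and 137 CPM in control and at 91.4, 107 and 103 CPM in Rosa-Hes1 libraries, with no overlap between groups (log2 fold change −0.41 ± 0.08 (SE), edgeR adjusted p = 0.0205). With edgeR it was the only one of 20 genes of peptide supply and loading that passed, whereas DESeq2 and limma-voom each called 1 higher and 2 lower. Erap1 did not pass when control replicate 1 or 3, or replicate 1 of Rosa-Hes1, was left out. The median log2 fold change of these 20 genes was −0.05. The chaperones Calr (0.21), Canx (0.02) and Pdia3 (−0.00) and the proteasome activator subunits Psme1 (−0.05) and Psme2 (−0.24) did not pass.

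The members varied between libraries of the same group. Rosa-Hes1 replicate 1 was the lowest of the 6 libraries for 7 of the 10 members, whereas it was lowest for 16.4% of all tested genes. The mean of the members' log2 CPM, each centred on its own mean, was 0.01, 0.09 and 0.06 in control replicates 1 to 3 and −0.20, −0.05 and 0.09 in Rosa-Hes1 replicates 1 to 3. Rosa-Hes1 replicate 3 was thus at the level of the controls and replicate 1 was below all other libraries. A list of 38 interferon-induced genes was lowest in the same library for 31 genes. Of these 38 genes 1 was increased (Ifi27, log2 fold change 0.53 ± 0.10 (SE), edgeR adjusted p = 0.0164) and 0 were decreased with edgeR (5 at an unadjusted p under 0.05), and the median log2 fold change was −0.20. Ifi27 did not pass when control replicate 1 or control replicate 3 was left out. DESeq2 called 2 of the 38 genes higher and 2 lower, and limma-voom called 1 higher and 0 lower. Isg15 was at 61.1 CPM in Rosa-Hes1 replicate 1 and at 85.3 to 129 CPM in the other 5 libraries. The part of this library's level of interferon-induced genes in the values of the members was not tested.

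The class II genes of the locus were low. Cd74, the invariant chain, was at 18.6 to 24.5 CPM in control and 21.9 to 38.4 CPM in Rosa-Hes1 libraries, and H2-Ab1 was at 3.84 to 4.14 and 3.98 to 10.8 CPM. Of the 10 tested class II genes 0 passed with edgeR (2 higher and 0 lower at an unadjusted p under 0.05), whereas DESeq2 called 2 and limma-voom 1 of them higher. Their median log2 fold change was 0.48.

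**Figure D4:**
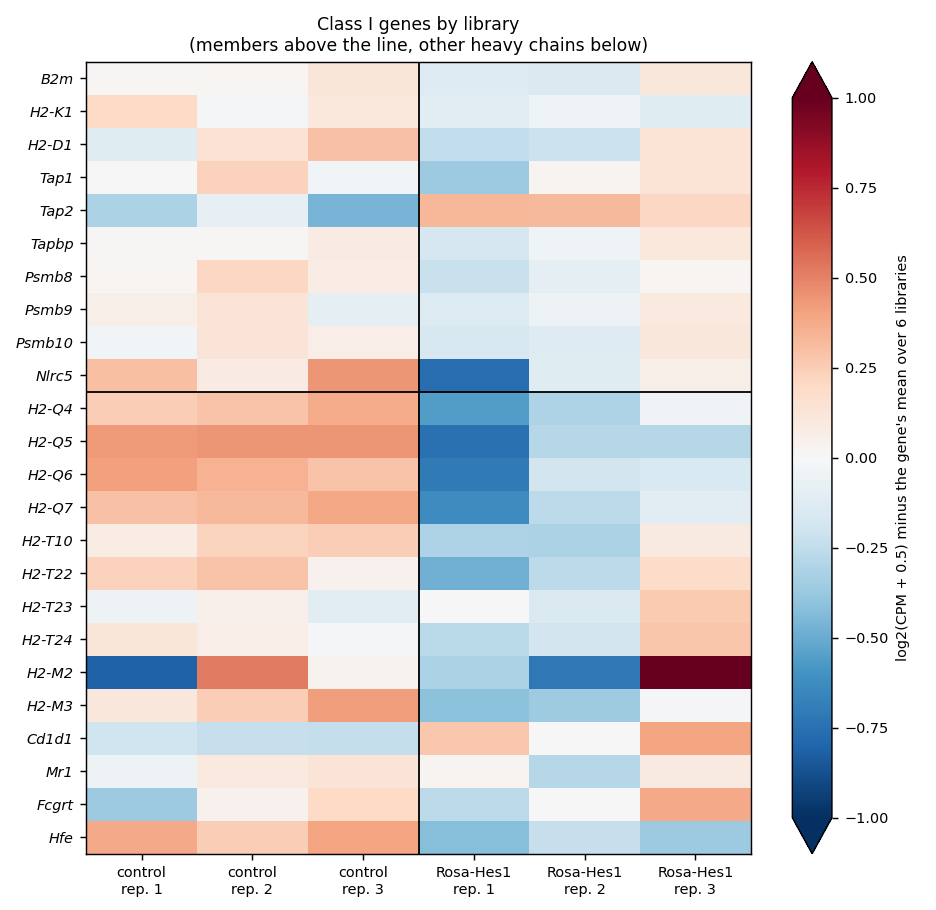
Log2(CPM + 0.5) of each gene minus its mean over the 6 libraries (colour, with values beyond ±1 drawn in the end colours), for the 10 genes above the line and 14 other class I heavy chain genes below it. Columns are libraries. Rosa-Hes1 replicate 1 is the lowest library for 7 of the 10 genes, and Tap2 is high in all 3 Rosa-Hes1 libraries.

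The genes whose levels were most like the members' mean across the 6 libraries, among 9087 that averaged 10 CPM or more, were Phf11b (Pearson r = 0.99), Gm6542 (0.98), Rab29 (0.97), Tlr1 (0.97) and Zfas1 (0.97). These values are a description over 6 libraries, which share depth and culture, and these genes were the highest of many. Phf11b was at 44.7, 49.6 and 46.3 CPM in control and at 27.1, 39.0 and 50.7 CPM in Rosa-Hes1 libraries, so that it too was lowest in Rosa-Hes1 replicate 1 (log2 fold change −0.27, edgeR adjusted p = 0.463).

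The 10 genes lie in several places of the genome. On GRCm38, Tapbp is at chr17:33915899-33929292, H2-K1 at chr17:33996017-34000347, Psmb9 at chr17:34181987-34187764, Tap1 at chr17:34187553-34197225, Psmb8 at chr17:34197721-34201454, Tap2 at chr17:34203527-34216321 and H2-D1 at chr17:35262730-35267499. Psmb9, Tap1, Psmb8 and Tap2 are thus neighbours in the class II region, and of this row Tap2 was the gene that was increased. B2m is at chr2:122147686-122153083, Nlrc5 at chr8:94434356-94527272 and Psmb10 at chr8:105935735-105938444.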

How the data were processed

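Total RNA was sequenced as poly(A)-selected, stranded, paired-end libraries of 75-base reads. According to the study's methods and the submitters' processing notes, the authors trimmed reads with Sickle, aligned them with HISAT2 2.1.0, used SAMtools 1.9, discarded duplicate reads (Picard) and assigned the rest to genes (HTSeq). Removal of duplicates can lower the counts of abundant genes such as B2m. The methods name a human genome, whereas the processing notes name GRCm38 and the identifiers are mouse. The deposited files hold whole-number counts per Ensembl gene, without normalization. Reads that HTSeq assigned to no gene were 17.4% to 18.1% of each library, of which ambiguous reads were 5.51% to 6.07% and reads without a unique alignment 7.37% to 7.49% of the library, and they were left out of library sizes.

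Names, positions and lengths were from GENCODE M21. Genes with at least 10 counts over the 6 libraries were tested with edgeR 4.0.16 (quasi-likelihood, robust, TMM) in R 4.3.3, with Benjamini-Hochberg adjusted p under 0.05 over all genes tested. The biological coefficient of variation was 0.124. CPM are TMM-normalized, and standard errors and 95% CI are those of the edgeR coefficient. The fitting script was tested on simulated data. Ratios were compared by exact permutation (scipy 1.17.1). Alternatives were other size factors, upper quartile, other filters, DESeq2 1.42.0, limma-voom 3.58.1, 1 surrogate variable (sva 3.50.0), a replicate block and leaving out each library. Libraries of a group differed by 9.49 to 18.4 chi-square per degree of freedom, above the sampling noise. The labels call them biological replicates. No batch is given.

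Members and lists were chosen with earlier results of these data known. All 10 members are named. From each list up to 4 genes that passed with the smallest adjusted p are named, and all where 5 or fewer passed. Psmb5, Psmb6, Psmb7, Irf1, Ciita, Rfx5, Irf8 and Hes1 are named in any case, with the 5 genes most like the members' mean, and 1 further gene of this rule is not reported here. Of the genes that passed in the heavy chain list, H2-Q6 and H2-M3 were named after their values were seen, as were H2-T23, Cd1d1, Oscar, Col1a1, H2-Ea-ps, H2-Ab1, Cd74, Isg15, Calr, Canx, Pdia3, Psme1 and Psme2. Of 225 symbols 219 matched.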

Additional observations from a re-analysis of the deposited data

How the results depend on the processing

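All 10 members kept the direction of their log2 fold change under every alternative except Tap1, which ranged from −0.23 to 0.01 when 1 library was left out. The number of genes called was 1399 and became 2178 with the DESeq2 Wald test, 2335 with limma-voom and 2360 with 1 surrogate variable, and 265 to 2646 when 1 library was left out. The number of members called higher was 1, and 0 to 1 when 1 library was left out, the 0 arising when replicate 1 of control or replicate 1 of Rosa-Hes1 was left out. The number called lower was 0, and 1 with DESeq2 (Nlrc5) and 1 with 1 surrogate variable (H2-D1). The cause was not tested. The deviations of libraries with the same replicate number had correlations of 0.001, −0.162 and 0.379. Those of libraries with different numbers ranged from −0.487 to 0.477. Each deviation was taken from the mean of only 3 libraries, which ties the correlations to one another. They therefore cannot settle whether the numbers pair the libraries. With a replicate block 1050 genes were called, Tap2 had edgeR adjusted p = 0.0228, no other member passed, and Atf1 of the regulators did not pass. Other size factors moved the median log2 fold change of all genes from −0.01 to −0.02 at most. The counts of the members, from 587 for Nlrc5 to 36061 for H2-D1 in a library, make counting error small, and the spread between 3 libraries limits precision.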
